A study of Danio rerio with 4 samples.

Results

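The strongest open regions common to all libraries were 262 stretches of zebrafish chromatin at which every one of 4 ATAC-seq libraries had a peak among its own 500 peaks of highest fold enrichment. They were chosen by the fold enrichment of peaks in these same 4 libraries: each library's peaks were ranked by it, the first 500 were taken, the peaks of all 4 libraries were merged wherever they shared 1 bp, and the merged regions that held a top-500 peak of every library were kept. Peaks of equal fold were ordered by chromosome and start. The 262 made up 35.5% of the 739 regions that held a top-500 peak of any library, and 0.237% of the 110754 regions called in all 4 libraries, out of 694637 merged regions in all. ATAC-seq cuts accessible DNA with the Tn5 transposase, and fragments shorter than 100 bp mark nucleosome-free regions (NFRs), where no nucleosome covers the DNA.

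All 4 libraries came from Tg(krt4:GFP) embryos, which carry a GFP transgene under the krt4 keratin promoter, at the 4-somite stage. Embryos were dissociated and sorted into GFP-positive cells, labelled as periderm, the superficial layer of the embryo, and GFP-negative cells, which are the rest of the embryo and so a mixture of many cell types. Each group had 2 libraries, called replicates 1 and 2, from pooled embryos of 2 incrosses, with both populations sorted from each. No label says which number belongs to which incross. In these libraries the identity of the GFP-positive cells rests on the transgene and the sort, since open regions hold no expression with which to check it. The study sectioned such embryos at this stage and reported high GFP only in the periderm. In its RNA-seq of separately sorted cells, genes higher in GFP-positive cells correlated positively with those annotated to that layer. GFP-positive replicates 1 and 2 had 336052 and 190059 peaks, and GFP-negative replicates 1 and 2 had 455867 and 333588 peaks. Positions are read as danRer7, the build named in the study's methods, although the submitters' processing notes name danRer10.

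Open chromatin is where regulatory proteins and the transposase reach the DNA. Promoters of genes that every cell uses, binding sites of architectural proteins such as CTCF, and a class of enhancers active in many tissues are typically open across cell types, whereas most enhancers open in only some. Genes, repeats and other sequence at these regions were not analysed here, and the peaks were called without a local background. Whether a high peak there reflects open chromatin alone was therefore not tested.

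The fold enrichment of a peak is its height in reads over the library's genome-wide background, with 1 read added to both. The implied background was 0.961 and 1.14 reads in GFP-positive replicates 1 and 2, against 1.64 and 1.45 in GFP-negative replicates 1 and 2. The added read therefore lowers folds as deposited more in the GFP-positive libraries. Fold enrichment was not scaled between libraries, so ranks and centred values are given beside it. The 500th peak had a fold of 84.6 in GFP-positive replicate 1, 83.8 in GFP-positive replicate 2, 127 in GFP-negative replicate 1 and 129 in GFP-negative replicate 2. The first peak outside the list had the same fold in every library, because folds come in steps of 1 read, and 15, 8, 3 and 2 peaks in that order of libraries sat at that value. The first 500 peaks were 0.149% and 0.263% of the 2 GFP-positive lists, against 0.110% and 0.15% of the GFP-negative lists. Members close to the limit included chromosome 13 from 46746657 to 46747300, with folds of 84.6 and 87.5 in GFP-positive cells, against 131 and 137 in GFP-negative cells. The region from 9346407 to 9346730 on chromosome 8 had 85.2 and 88.9 in GFP-positive cells, against 139.5 and 146 in GFP-negative cells, and chromosome 15 from 4387074 to 4387543 had 86.7 and 93.2, against 138 and 129.

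Member regions made up most of the head of each list. Of the 500 strongest peaks, 59.6% and 57.2% in GFP-positive replicates 1 and 2 lay in member regions, against 55.0% and 58.2% in GFP-negative replicates 1 and 2. There were 33 members within the first 50 of every list and 67 within the first 100. In 261 of the 262 members the top peaks of the 4 libraries shared at least 1 base, and 232 members held exactly 1 top peak of each library. Of the other 477 regions with a top-500 peak, 126 had one in 3 libraries, 120 in 2 and 231 in 1, and 470 of these 477 were still called as peaks in all 4 libraries. The 2 GFP-positive libraries shared 337 top regions, which were 72.6% and 70.8% of their lists, and the 2 GFP-negative libraries shared 401, or 82.3% and 85.3%. Pairs of libraries from different groups shared between 325 and 341.

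Most regions that missed only 1 list missed it in GFP-positive cells. The missing library was GFP-positive replicate 1 for 51 regions and GFP-positive replicate 2 for 46, against GFP-negative replicate 1 for 9 and GFP-negative replicate 2 for 20. In the library where they missed, the median rank of those called was 696, 634, 554 and 619 in the same order of libraries, so most lay not far past the limit. In GFP-positive replicate 1, however, 12 of the 51 ranked past 2000, the last of them at 289347, and another 6 had no peak at all, whereas in the other libraries 0 ranked past 2000. Of the 6 with no peak, 1 on chromosome 3 from 32728312 to 32728366 had a fold of 489 in GFP-positive replicate 2, against 447 and 464 in GFP-negative cells. Another, 53 bp on chromosome 13 from 15532137 to 15532189, had a fold of 397 in GFP-positive replicate 2, against 417 and 443 in GFP-negative cells. In all 6 the peak had the same width in each of the 3 libraries that called it. These 6 were singled out after their values were seen. Chromosome 15 held 44 of the 500 strongest peaks of GFP-positive replicate 2, against 19 of GFP-positive replicate 1 and 17 in each GFP-negative library, yet only 13 members.

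Member folds ran from 84.6 to 801 in GFP-positive replicate 1 and from 83.8 to 2795 in GFP-positive replicate 2, against 127.8 to 3464 in GFP-negative replicate 1 and 129.4 to 3261 in GFP-negative replicate 2. The median member had a fold of 115.5 in GFP-positive replicate 1 and 114.5 in GFP-positive replicate 2, against 198 in GFP-negative replicate 1 and 184 in GFP-negative replicate 2. Over all regions called in every library the median was 10.2 and 8.43 in GFP-positive cells, against 10.2 and 10.2 in GFP-negative cells. The rule itself sets the members above the rest, so this is a description of how far above they stood.

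**Figure D1:**
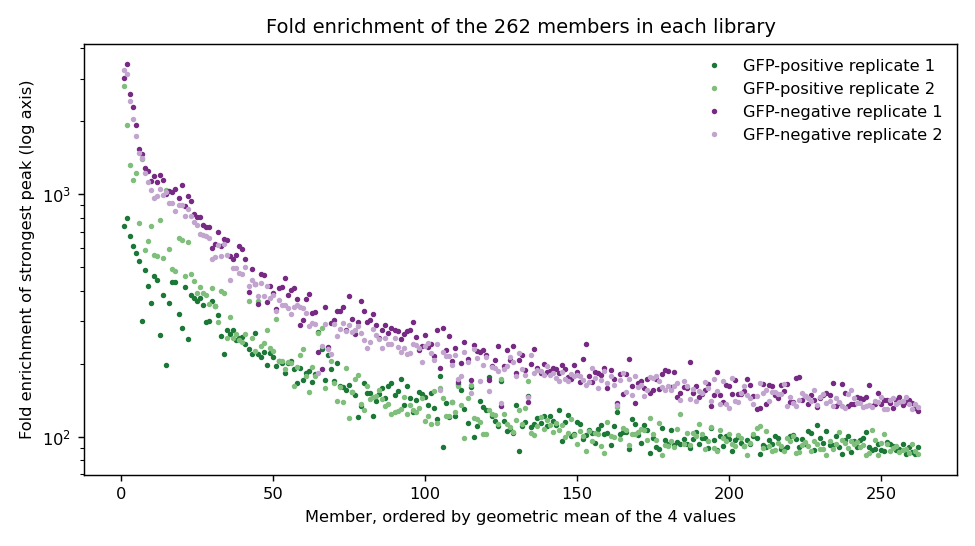
Fold enrichment (log axis) of the strongest peak of each of the 262 members in the 2 GFP-positive libraries (green) and the 2 GFP-negative libraries (purple), with members along the horizontal axis in falling order of the geometric mean of the 4 values. Median members stood at 115.5 and 114.5 in GFP-positive cells, against 198 and 184 in GFP-negative cells, and the GFP-positive points lie below the GFP-negative ones along almost the whole order.

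A pair of members shared the first and second rank in every library, on chromosomes 15 and 2. On chromosome 15, from 13427765 to 13431897, the strongest peak spanned about 4 kb in every library. Its folds were 801 and 1925 in GFP-positive replicates 1 and 2, against 3464 and 3134 in GFP-negative replicates 1 and 2. Read back from the size of 1 step, those heights stand for 1570 and 4112 reads at the summit in GFP-positive cells, against 9135 and 7678 in GFP-negative cells. A second member only about 100 bp before it, from 13426472 to 13427667, had folds of 420.2 and 639.9 in GFP-positive cells, against 1247 and 1125 in GFP-negative cells. Both members were lower in each GFP-positive library than in either GFP-negative library, and the GFP-positive libraries were far apart from each other at the stronger one.

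Chromosome 2 from 13838790 to 13839698 ranked first or second in every library. Its folds were 739 and 2795 in GFP-positive cells, against 3011 and 3261 in GFP-negative cells. GFP-positive replicate 2 lay close to the GFP-negative libraries there and GFP-positive replicate 1 did not. A neighbouring pair stood on chromosome 10. The member from 16749778 to 16752682 had 673 and 1316 in GFP-positive cells, against 2602 and 2432 in GFP-negative cells, and the member from 16748493 to 16749593 had 529 and 759.8, against 1544 and 1479. On chromosome 17 the 336 bp from 53841300 to 53841635 had 574 and 1229 in GFP-positive cells, against 1923 and 1746 in GFP-negative cells. A second chromosome 17 member, from 40105801 to 40107796, had 610.4 and 1150.2 in GFP-positive cells, against 2288 and 2052 in GFP-negative cells. All of these were lower in both GFP-positive libraries than in both GFP-negative ones as deposited. With each library centred on its median over all regions called in every library, the groups overlapped at the chromosome 2 member.

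The other 3 of the first 10 were closer between the GFP-positive libraries than those above. Chromosome 2 from 56692345 to 56692692 had folds of 486 and 591 in GFP-positive cells, against 1288 and 1224 in GFP-negative cells. Chromosome 20 from 4645275 to 4645688 had 459 and 564 in GFP-positive cells, against 1192 and 968 in GFP-negative cells. Chromosome 13 from 19161529 to 19165707 had 445 and 558.5 in GFP-positive cells, against 1127 and 984 in GFP-negative cells. Between the groups these 3 were further apart than either group was within itself.

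Most members had lower fold enrichment in the GFP-positive libraries than in the GFP-negative ones, but how many did, and by how much, depended on how libraries were put on a common scale. The rule took 500 peaks from each list, which admitted folds down to 84.6 and 83.8 in GFP-positive cells, against 127 and 129 in GFP-negative cells. The counts and medians below are therefore not independent of the choice of members. How far that choice set their direction was not tested. With each library's log2 fold centred on its median over all regions called in every library, the median difference over the members, GFP-positive minus GFP-negative, was -0.63 on the log2 scale (quartiles -0.80 and -0.48, range -1.28 to 0.54), against -0.02 over all those regions. The median centred value over the members was 3.63 ± 0.185 in GFP-positive cells and 4.22 ± 0.0729 in GFP-negative cells (SD, n = 2 libraries each). Both GFP-positive values lay below both GFP-negative values in 242 members and above them in 3. Over all 110754 regions the same patterns held in 27.5% and 23.8%. Within both same-numbered pairs of libraries, 244 members were lower and 5 higher, a pattern that was not counted over all regions. As deposited, without centring, 252 members were lower (35.0% of all regions) and 3 higher (16.2%).

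By rank among the regions called in every library, where each library's highest value counts the same, 65 members were lower in both GFP-positive libraries (24.4% of all regions) and 31 higher (24.8%). Centred on the members' own medians, 83 were lower (5.36% of all regions on that scale) and 58 higher (62.2%), and the median difference was -0.04. Centred on the strongest 1% of other regions, 144 were lower (8.81% of all regions on that scale) and 17 higher (52.6%). Both of these scales move the bulk of regions upward. The shares of all regions on them reflect the centring and are no baseline for the members. Without GFP-positive replicate 1 the count of members higher in GFP-positive cells was 29 of 316, with membership set on the other 3 libraries. Only 1 GFP-positive value then had to lie above both GFP-negative values, a looser pattern than those above. Its share of all regions was not counted. With 2 libraries a group the exact two-sided permutation test cannot give a p below 0.33, so none of these differences was tested region by region. The read totals implied by the background were 24915271 and 29455701 in GFP-positive cells, against 42446899 and 37589490 in GFP-negative cells, so read depth and group cannot be told apart. In sorted pools, fewer cells with a region open and less opening in each cell cannot be told apart either.

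**Figure D2:**
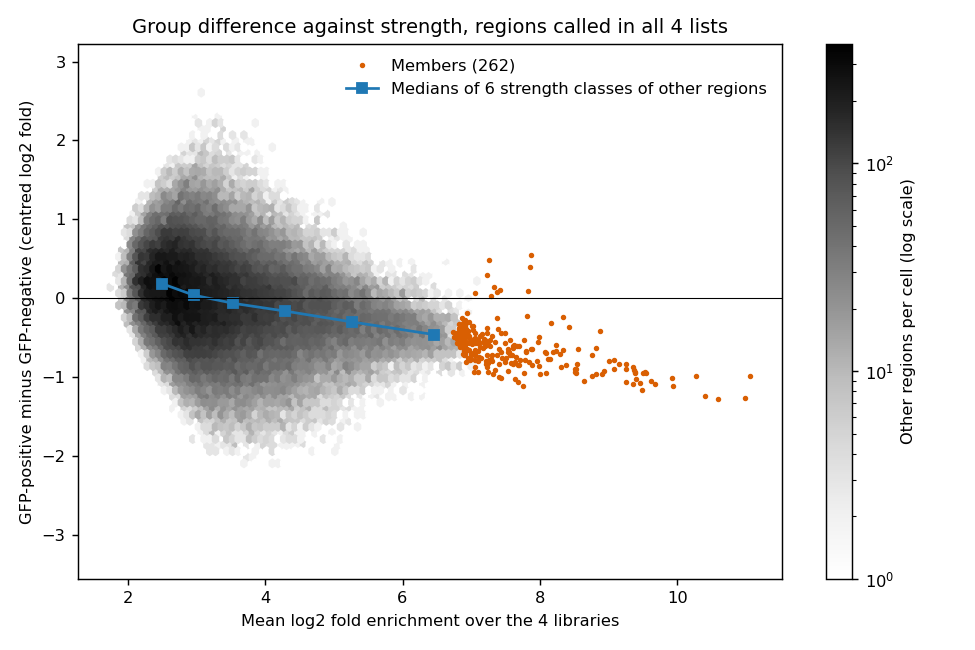
Difference in centred log2 fold enrichment, GFP-positive minus GFP-negative, against the mean log2 fold over the 4 libraries, with the 262 members as orange points, other regions called in every library as grey cells shaded by their number (log scale), and the medians of 6 strength classes of those regions as blue squares. The median was 0.19 below the 25th percentile of fold, -0.46 in the strongest 1% outside the members and -0.63 in the members.

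The difference changed with strength across the whole series. On the scale centred over all regions, the median difference was 0.19 in regions below the 25th percentile of mean fold, 0.04 between the 25th and 50th, -0.06 between the 50th and 75th, -0.16 between the 75th and 90th, -0.30 between the 90th and 99th, and -0.46 among the 1105 strongest regions that were not members. Of those 1105, 79.5% were lower in both GFP-positive libraries and 1.99% higher. Each pairing of libraries gave the members a negative median. It was -0.79 for GFP-positive replicate 1 minus GFP-negative replicate 1, -0.43 for replicate 2 minus replicate 2, -0.73 for GFP-positive replicate 1 minus GFP-negative replicate 2, and -0.51 for GFP-positive replicate 2 minus GFP-negative replicate 1. On the centred scale the 2 GFP-positive libraries differed by a median of -0.30 (replicate 1 minus replicate 2), and the 2 GFP-negative libraries by 0.10. There the gap between the GFP-positive libraries was smaller than each of the 4 gaps between groups, though close to the smallest of them. As deposited, the GFP-positive libraries differed by a median of -0.03 and the GFP-negative libraries by 0.11.

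Only 3 members were higher in both GFP-positive libraries on the scale centred over all regions, and the same number as deposited. The widest difference was on chromosome 5 from 1184295 to 1195006, a region of 10712 bp with folds of 269 and 267 in GFP-positive cells, against 224 and 184 in GFP-negative cells (difference 0.54). Chromosome 21 from 34628175 to 34629390 had 169.8 and 174 in GFP-positive cells, against 133 and 138 in GFP-negative cells (difference 0.48). Chromosome 8 from 31748790 to 31749345 had 147 and 169.9 in GFP-positive cells, against 138 and 145 in GFP-negative cells (difference 0.30). As deposited, the GFP-positive libraries were close to each other on chromosomes 5 and 21 and further apart on chromosome 8. Centring over all regions widened all 3 gaps, since the medians of GFP-positive replicates 1 and 2 were 10.2 and 8.43. Of the members whose groups did not overlap, the next in order were on the lower side. Chromosome 11 from 31961303 to 31962135 had 109 and 109.5 in GFP-positive cells, against 134 and 140.007 in GFP-negative cells (difference -0.19). Chromosome 18 from 30365481 to 30366130 had 112 and 93.2 in GFP-positive cells, against 132 and 135 in GFP-negative cells (difference -0.25).

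Members near these 3 did not all go the same way. On chromosome 5 the member from 1182163 to 1183405 had 178 and 159 in GFP-positive cells, against 192 and 156 in GFP-negative cells (difference 0.10), and on chromosome 8 the member from 31720658 to 31721525 had 161 and 163, against 171 and 151 (difference 0.15). On chromosome 21 the member from 34614609 to 34615469 had 189.7 and 206 in GFP-positive cells, against 295 and 218 in GFP-negative cells (difference -0.22). A lone member on chromosome 15, from 13947594 to 13947897, had 229 and 281 in GFP-positive cells, against 189.6 and 237 in GFP-negative cells (difference 0.40). On the scale centred over all regions the groups overlapped at all 4, which were named after their values were seen. As deposited, both GFP-positive folds of the chromosome 21 member lay below both GFP-negative ones. At the other end, the largest differences belonged to the strongest regions. They were -1.28 at chromosome 10 from 16749778, -1.27 at chromosome 15 from 13427765, -1.23 at chromosome 17 from 40105801, -1.16 at chromosome 15 from 36951 and -1.11 at chromosome 10 from 16748493.

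Replicates of GFP-negative cells tracked each other more closely than those of GFP-positive cells. All 262 members had GFP-negative folds within 1.5 times of each other, and 242 had GFP-positive folds within 1.5 times. Across members, Pearson's r of log2 fold was 0.933 between the GFP-positive libraries, 0.987 between the GFP-negative libraries and 0.937 to 0.962 between groups. Spearman's rho gave another order, with 0.874 between the GFP-positive libraries, 0.934 between the GFP-negative libraries and 0.824 to 0.863 between groups. These correlations are over regions chosen for high values in the same libraries and carry no test. In 10 members GFP-positive replicate 2 was more than 2 times GFP-positive replicate 1, and in 0 the reverse held. All of these counts use folds as deposited and were not made over all regions called in every library. There the medians of GFP-positive replicates 1 and 2 were 10.2 and 8.43.

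**Figure D3:**
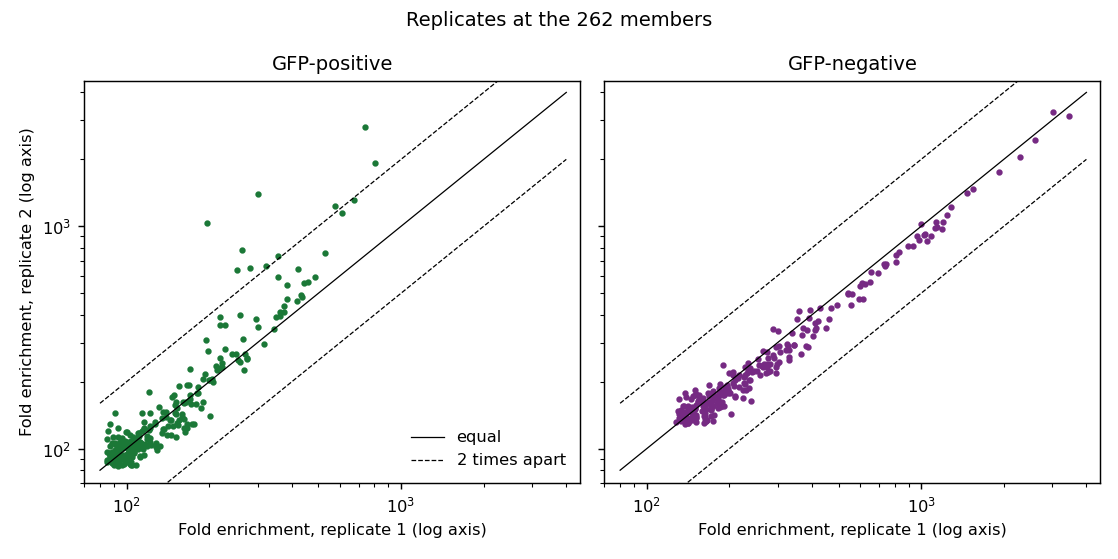
Fold enrichment of each member in replicate 2 against replicate 1 (both axes log), GFP-positive libraries on the left and GFP-negative libraries on the right, with lines at equal values and at a 2-times difference. The 10 members beyond the line in GFP-positive cells all had the lower value in replicate 1, and 0 lay beyond it in GFP-negative cells.

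The widest such gap lay on chromosome 2 from 3454411 to 3454745, with 197 and 1039 in GFP-positive replicates 1 and 2, against 999.9 and 1022 in GFP-negative replicates. On chromosome 4, the 385 bp from 43897975 to 43898359 had 301 and 1403 in GFP-positive cells, against 1473 and 1411 in GFP-negative cells. On chromosome 15, the 349 bp from 36951 to 37299 had 264 and 782 in GFP-positive cells, against 1201 and 1047 in GFP-negative cells. GFP-positive replicate 1 was the lowest library in all 3. At those on chromosomes 2 and 4 GFP-positive replicate 2 lay close to the GFP-negative libraries, so that the group difference rested on replicate 1. The others were chromosome 24 from 27502, chromosome 22 from 42255849, chromosome 3 from 63268739, chromosome 17 from 53842094 and 3 of the 10 strongest, on chromosomes 15, 2 and 17. These were named after their values were seen.

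Of the 10, 4 lay within 100 kb of the outermost peak of their chromosome. In all, 7 members (2.67%) lay that close to a chromosome end, against 1.08% of all regions called in every library. Chromosome 3 from 63268739 to 63268898 was the last peak on its chromosome. It had folds of 355 and 738 in GFP-positive cells, against 1131 and 1046 in GFP-negative cells. Near the start of chromosome 18, the members from 29539 to 31689 and from 37951 to 38234 had folds of 171 and 229, and of 193 and 217, in GFP-positive cells, against 301 and 338, and 289 and 344, in GFP-negative cells. Within 1 Mb of an end the shares were close, at 8.40% of members and 7.03% of all regions.

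Members were wide. The strongest peak of a member had a median width of 536 bp in GFP-positive replicate 1 and 497.5 bp in GFP-positive replicate 2, against 721 and 570.5 bp in GFP-negative replicates 1 and 2. Over all regions called in every library the medians were 158 and 129 bp in GFP-positive cells, against 184 and 158 bp in GFP-negative cells. The strongest 1% of other regions lay between, with 352 and 322 bp in GFP-positive cells, against 439 and 378 bp in GFP-negative cells. Width and height come from the same pileup of reads, so width is not independent of the choice of members. Widths varied over a large range. The strongest peak was 1000 bp or more in all 4 libraries in 70 members (0.124% of all regions, 137 of them) and under 500 bp in all 4 in 84 (92.2% of all regions), and 108 members lay between. Both GFP-positive widths were below both GFP-negative widths in 107 members (34.3% of all regions) and above them in 7 (9.03%). Width also depends on whether neighbouring peaks were called as 1. A single peak made up 58.4% and 59.5% of members in GFP-positive replicates 1 and 2, against 85.1% and 59.2% in GFP-negative replicates 1 and 2. GFP-negative replicate 1 had the highest implied read total. Across the members, log2 width and mean log2 fold had a Pearson's r of 0.293 and a Spearman's rho of 0.387, so the widest were often not the strongest.

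**Figure D4:**
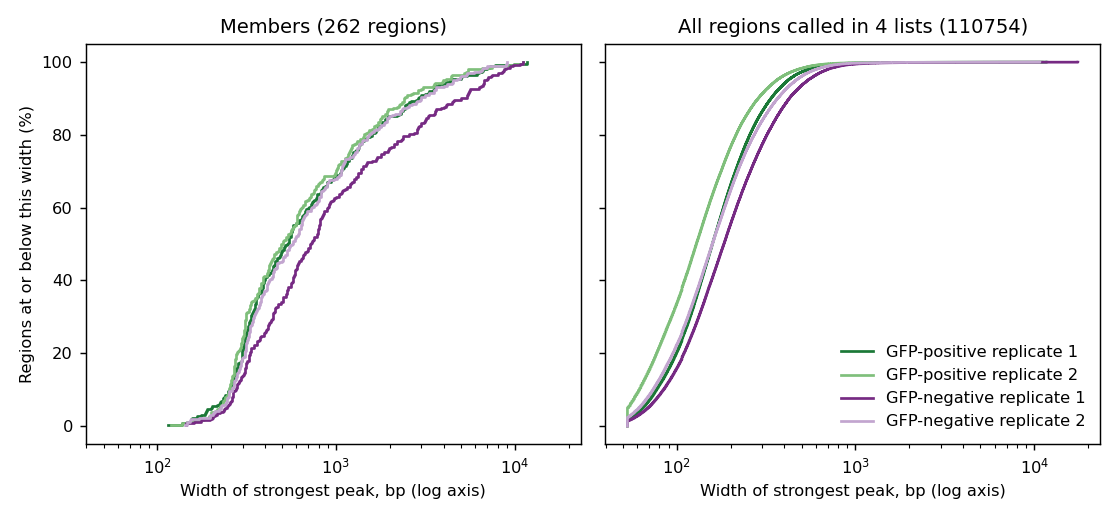
Percent of regions whose strongest peak was at or below a given width in bp (log axis), 1 line per library, GFP-positive in green and GFP-negative in purple, for the 262 members on the left and all 110754 regions called in every library on the right. Member medians ran from 497.5 to 721 bp and those of all regions from 129 to 184 bp.

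The 5 widest members by the median width of their strongest peak over the 4 libraries had several kilobases under that peak. Chromosome 20 from 55770299 to 55797449 was 27151 bp wide as a merged region, the widest of all regions called in every library. Its folds were 216 and 231 in GFP-positive cells, against 234 and 230.2 in GFP-negative cells, so the groups overlapped there as deposited. Its strongest peak was 11768 and 11161 bp wide in GFP-positive cells, against 1189 and 9049 bp in GFP-negative cells. The low width in GFP-negative replicate 1 is that of its highest peak alone. All peaks together covered 98.9% and 97.1% of the region in GFP-positive cells, against 98.3% and 95.9% in GFP-negative cells. Chromosome 5 from 1184295 to 1195006, already named as higher in GFP-positive cells, had a strongest peak of 9921 and 9896 bp in GFP-positive cells, against 10712 and 8957 bp in GFP-negative cells. Chromosome 10 from 16801587 to 16810522 had folds of 137 and 122 in GFP-positive cells, against 229 and 215 in GFP-negative cells. Chromosome 7 from 54469689 to 54476706 had 297 and 384 in GFP-positive cells, against 731 and 674 in GFP-negative cells, and chromosome 8 from 36436581 to 36443252 had 141 and 126, against 257 and 238.

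The narrowest members held peaks of about a nucleosome's length of DNA. Chromosome 6 from 24575138 to 24575285 covered 148 bp and had folds of 90.8 and 144 in GFP-positive cells, against 281 and 224 in GFP-negative cells. Chromosome 9 from 44193310 to 44193609 had 219.8 and 361 in GFP-positive cells, against 353 and 381 in GFP-negative cells, and its groups overlapped. Chromosome 22 from 29026945 to 29027127 had 114 and 144 in GFP-positive cells, against 209 and 204 in GFP-negative cells. On chromosome 4 the 260 bp from 30416352 to 30416611 had 134 and 137 in GFP-positive cells, against 364 and 267 in GFP-negative cells. The fifth was the end of chromosome 3 described above. Narrow members, like wide ones, were found at moderate and at high fold.

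Members were grouped by width, and the classes are described by their counts without a test between them. Of the 70 members at 1000 bp or more in every library, 58 (82.9%) had another member within 10 kb, against 34 of 108 (31.5%) in the middle class and 10 of 84 (11.9%) under 500 bp. Within 100 kb of a chromosome end lay 0 of the wide, 3 of the middle and 4 of the narrow members. Centred on the members' medians, the median difference between GFP-positive and GFP-negative cells was -0.21 in the wide class, 0.04 in the middle class and -0.01 in the narrow class. On this scale 5.36% of all regions were lower in both GFP-positive libraries and 62.2% higher, shares that reflect the centring and are no baseline for members. In the wide class 41 members were lower and 8 higher. In the middle class 24 were lower and 31 higher, and in the narrow class 18 were lower and 19 higher.

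As merged regions the members had a median width of 803.5 bp (148 to 27151 bp) and 510573 bp in total, against a median of 235 bp over all regions called in every library. Exactly 1 peak from each library made up 44.3% of members, against 81.5% of all regions, and the most peaks in 1 member was 37. In the strongest 1% of other regions the median width was 498 bp, and 58.8% had exactly 1 peak from each library. Of the 40 regions over 5 kb called in every library, 29 were members. The start and the end of the strongest peak each fell within 20 bp over the 4 libraries in 29 members (11.1%), against 3.50% of all regions. Around each member, a median of 14 other regions called in every library lay within 10 kb, against 12 around any such region.

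Part of the members lay in runs, while most stood alone. Another member was within 10 kb of 38.9% of them, and a member was within 10 kb of 851 (0.770%) of the other regions called in every library. Joined at 10 kb, 102 members fell into 29 stretches of 2 or more, of which 12 held exactly 2 members and 17 held 3 or more, with 78 members in the larger ones. The remaining 160 members stood alone. Neighbouring members are not independent sites.

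**Figure D5:**
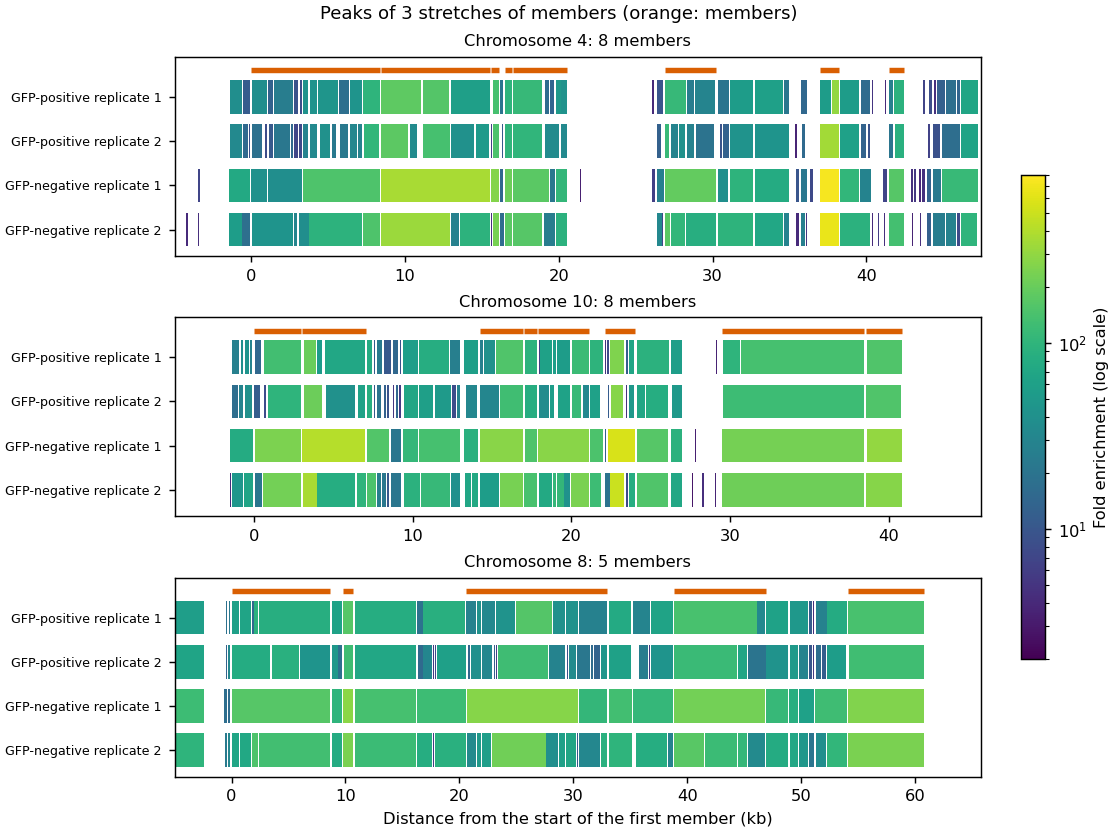
Peaks of the 4 libraries, GFP-positive rows above GFP-negative rows, along the stretches on chromosomes 4 and 10 with 8 members each and a stretch on chromosome 8 with 5, by distance in kb from the start of the first member and coloured by fold enrichment (log scale), with members marked by orange bars. Peaks covered between 66.7% and 78.6% of the chromosome 4 stretch and between 91.7% and 97.6% of the chromosome 8 stretch.

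The 2 richest stretches held 8 members each. On chromosome 4 the stretch ran from 27864858 to 27907320, and peaks covered 73.1% and 66.7% of its 42463 bp in GFP-positive cells, against 78.6% and 76.2% in GFP-negative cells. Member folds within it ran from 92.3 to 301 in GFP-positive replicate 1 and from 88.9 to 353 in GFP-positive replicate 2, against 149 to 736 in GFP-negative replicate 1 and 134 to 662 in GFP-negative replicate 2. The strongest of the 8, in every library, was the member from 27901822 to 27903100. Chromosome 4 held 14 members in all, 8 of them in this stretch, and the last of them started at 60232037.

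On chromosome 10 the stretch ran from 16772077 to 16812890, and peaks covered 84.5% and 80.1% of its 40814 bp in GFP-positive cells, against 89.4% and 86.6% in GFP-negative cells. It began about 20 kb after the pair of members that was among the strongest of all, so the 100 kb window from 16700001 to 16800000 held 10 members, the most of any such window. Its own strongest member, from 16794194 to 16796074, had 251 and 266 in GFP-positive cells, against 562 and 496 in GFP-negative cells. The windows of next most members, 7 each, lay on chromosome 17 from 46600001 and on chromosome 8 from 45700001.

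A further 3 stretches held 6 members each. On chromosome 17, from 46608318 to 46633887, peaks covered 86.7% and 82.8% in GFP-positive cells, against 91.5% and 88.0% in GFP-negative cells. The strongest member there, from 46632815 to 46633887, had 385 and 470.005 in GFP-positive cells, against 935 and 813 in GFP-negative cells. On chromosome 8, from 45700699 to 45722562, the members from 45703752 to 45707363 and from 45707445 to 45709305 were separated by less than 100 bp. They had folds of 374 and 439, and of 436 and 482, in GFP-positive cells, against 827 and 769, and 1053 and 857, in GFP-negative cells. The third was on chromosome 5, from 3344659 to 3361457. A further stretch on chromosome 8, from 36382473 to 36443252, held 5 members in 60780 bp and was covered almost without a gap, to 95.3% and 91.7% in GFP-positive cells, against 97.6% and 94.7% in GFP-negative cells.

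Group differences varied within stretches as well as between them. Within the 17 stretches of 3 or more members, the range of the difference, centred on the members, was between 0.116 and 0.662 with a median of 0.436, against quartiles of -0.21 and 0.11 and a full range of 1.82 over all members. In 8 of these 17 stretches every member's difference was below 0, and in 0 of them was every one above 0. These figures were not tested.

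By chromosome, the members were unevenly spread. Chromosome 8 held 24 members, or 9.16%, against 4.18% of all regions called in every library. Chromosomes 2 and 3 held 20 each (7.63% each, against 4.49% and 4.88%), and chromosomes 10, 17 and 5 held 18 each (6.87%, against 3.40%, 3.82% and 5.65%). Chromosomes 12 and 19 held the fewest, 2 each (0.763%, against 3.48% and 3.84%). Much of the count on chromosome 8 came from the stretches above, since the 2 named there held 11 of its 24 members.

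The 5 elements that the study placed around cldne, a claudin gene used there as a periderm locus on chromosome 15, held 0 members. The study picked them among regions more open in GFP-positive cells, whereas a member needs a top-500 peak in every GFP-negative library. Members were also only 0.237% of all regions called in every library, so 0 of 5 carries little information. The best rank of a peak in any of them, in any library, was between 16679 and 45060, and the highest fold was between 12.2 and 19.2, far under the limit for the 500 strongest.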

How the data were processed

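Nuclei of sorted cells were tagmented and sequenced by the study. Per the methods and labels, the authors trimmed reads with Trimmomatic, mapped them with Bowtie2, kept fragments shorter than 100 bp and ran MACS2 2.1.1 on 1 library at a time to give each peak's fold enrichment, without a local background, with a genome size of 1.4e+09 and tags extended to 54 bp. The deposited files list each peak's position and a value with no column name. This deposited value was read as the fold enrichment that the authors' peak caller computed. That is a ratio of a peak's pileup to the genome-wide background, with 1 read added to both. The reading was chosen because the values of each library are whole multiples of 1 step (0.510, 0.468, 0.379 and 0.408 in GFP-positive replicates 1 and 2 and GFP-negative replicates 1 and 2, tolerance 0.02 steps). Read totals were derived from that step and are estimates. The methods name danRer7 and the submitters' processing notes danRer10. The last peak ended at 62094618 on chromosome 4. No genome or gene annotation of that build was used here.

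Peaks were ranked, merged at 1 bp of overlap and counted with Python 3.11.15, pandas 2.3.3, numpy 2.4.6 and scipy 1.17.1, and the steps were tested on simulated peak lists with planted regions. A region's value in a library was its strongest peak there. Log2 folds were centred on the library's median over regions called in all 4 libraries. Replicates are separate libraries, and the smallest two-sided p that 2 against 2 allows in an exact permutation test is 0.33, so no test was run. The study compared groups on reads, which peak lists do not hold. Regions named were the 10 strongest by worst rank, the 5 widest and the 5 narrowest, the 5 with the highest and the 5 with the lowest group difference among those whose groups did not overlap, the 3 nearest the limit, the richest 100 kb windows and any at the cldne elements. Others were named after their values were seen. The members, the gene locus and the lists were chosen with earlier results of these data known. Alternatives changed the number of top peaks, the merging, the ranking, the scale and the libraries used.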

Additional observations from a re-analysis of the deposited data

How the results depend on the processing

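The number of members was 262 with 500 peaks per library, 139 with 250 and 544 with 1000. Between 281 and 316 were found when a library was left out. It was 232 with peaks within 100 bp merged, 191 with peaks ranked by width and 192 with 0.15% of each list. The share with a neighbour within 10 kb was not recomputed after that merging. The mean share of top peaks in members was 57.5%, 61.4% with 250 peaks, and 59.6% to 66.7% with a library left out. The median width of the strongest peak was 581 bp, 939.8 bp with 250 peaks, 447 bp with 1000, 678 bp with all peaks of a region summed, and 500.2 to 579 bp with a library left out. Members higher in GFP-positive cells numbered 3 (23.8% of all regions), and 58 centred on the members (62.2%) and 31 by rank (24.8%). They numbered 17 centred on the strongest 1% of other regions (52.6% of all regions on that scale) and 10 by height times width. With a library left out they numbered 3 to 29. The high end came without GFP-positive replicate 1. With a library left out, 1 group had only 1 value, so counts of members higher or lower rest on a looser pattern and on 281 to 316 members. Members lower numbered 242 (27.5% of all regions), and 83 centred on the members (5.36%) and 65 by rank (24.4%). They numbered 144 on the strongest-1% scale (8.81%), 166 by height times width, and 259 to 303 with a library left out. On the member-centred and strongest-1% scales the shares of all regions reflect the centring and are no baseline. Counts by height times width, and with a library left out, were not made over all regions. The median difference was -0.63, and -0.19 on the strongest-1% scale, which was chosen after seeing the data, and -0.76 to -0.47 with a library left out. The share of members with a neighbour within 10 kb was 38.9%, 54.7% with 250 peaks, 30.5% with 1000, 46.6% within 50 kb, and 34.2% to 43.1% with a library left out. With the replicate block, 5 members were higher in GFP-positive cells within both numbered pairs, 244 were lower, and the median difference was -0.63. The paired pattern was not counted over all regions. Whether equal numbers mark libraries of the same incross is not given in the labels. The deviations of the 2 groups' replicates correlated at 0.143 over the members and 0.0052 over all regions. The median difference stayed negative wherever it was recomputed, and members lower outnumbered members higher in every alternative. These alternatives reuse the same folds on members chosen by those folds, so they are not independent checks. By rank, 24.8% of members were lower, close to the 24.4% of all regions, and 11.8% were higher, against 24.8% of all regions. The rule itself chose members by their ranks in each list. The count of members higher moved by more than 1.5 times in 7 alternatives and not in 3. The count lower did so in 3 and not in 7. The other values in the report were not recomputed. The check of sequence and annotation was not run, since no genome of the build was used.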
